A study of Mus musculus with 24 samples.

Results

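The genes described here are 9 transcripts that are commonly read as signs of stress and remodelling in the heart: Nppa, Nppb, Acta1, Actc1, Ankrd1, Xirp2, Ctgf, Postn and Timp1. They were chosen by name, with earlier results of these data known, and are 9 of the 21368 genes named on the arrays. Each was measured by 1 probe, and the probe of Nppa was printed at 10 spots. Ctgf carries the RefSeq symbol Ccn2 and is called Ctgf throughout.

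RNA of heart, skeletal muscle, liver and brain of 6 female mice was hybridised to 24 single-colour Agilent arrays. In the knockin (KI) mice, labelled RAP1 MUT, both copies of Rap1 (gene symbol Terf2ip) carried a mutation that puts arginine in place of an isoleucine of the telomere protein RAP1 and keeps it from binding TRF2, its anchor at telomeres. The wild-type (WT) mice, labelled RAP1 WT, were littermate controls. The line was made with Crispr/Cas9 and back-crossed to C57BL6 (C57BL/6N in the study's methods) 4 times, and the allele is carried in every tissue. KI mice A (15 months), B (15 months) and C (14 months) and WT mice D (15 months), E (15 months) and F (14 months) each gave all 4 tissues, so that there were 8 groups of 3. The comparison asks whether these transcripts are shifted in KI tissues, first in heart. The labels give no treatment or load on the heart.

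When the wall of the heart is stretched or overloaded, its muscle cells are known to switch on genes of the fetal heart. Among these are Nppa and Nppb, which code for the natriuretic peptides ANP and BNP, hormones that make the kidney excrete salt and water. Others are Acta1, the actin of skeletal muscle, and the stretch-responsive proteins Ankrd1 of the sarcomere's I-band and the nucleus and Xirp2 of the cell junctions, while Actc1 is the actin of the adult heart. The last 3 genes speak for the connective tissue. Ctgf codes for a secreted matricellular protein of the CCN family, Postn for periostin, a matrix protein of activated fibroblasts, and Timp1 for a secreted inhibitor of matrix metalloproteinases.

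Promoters are shown for 2 pairs of genes on which the tissue comparison turns, the neighbouring hormone genes and the striated muscle actins. Each sequence runs from 250 bases before the annotated start of the gene to 50 bases after it, 5′ to 3′ on the strand of the gene, taken from RefSeq on GRCm38.p6. Capitals mark matches, on either strand, to 5 motifs: the CArG box, which serum response factor binds, the MEF2 motif, and 3 others. The element bound by TEAD factors was searched as CATTCC. The element of Gata4 and its relatives was searched as AGATAA. The box that often lies before a start site was searched as TATAAA and is called the start box here.
Nppb, chr4:147985650-147985949, forward strand: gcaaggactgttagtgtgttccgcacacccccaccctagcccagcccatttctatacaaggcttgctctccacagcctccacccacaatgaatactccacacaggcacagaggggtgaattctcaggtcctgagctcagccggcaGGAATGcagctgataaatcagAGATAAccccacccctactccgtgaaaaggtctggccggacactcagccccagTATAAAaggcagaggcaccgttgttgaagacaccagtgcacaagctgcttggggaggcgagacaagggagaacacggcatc
Nppa, chr4:148000472-148000771, forward strand: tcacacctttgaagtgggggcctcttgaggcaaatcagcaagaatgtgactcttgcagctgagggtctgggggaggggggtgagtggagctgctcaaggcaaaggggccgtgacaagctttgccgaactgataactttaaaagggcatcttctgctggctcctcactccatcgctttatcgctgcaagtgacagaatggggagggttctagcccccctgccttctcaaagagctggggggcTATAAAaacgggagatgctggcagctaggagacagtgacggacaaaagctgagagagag
Acta1, chr8:123894726-123895025, reverse strand: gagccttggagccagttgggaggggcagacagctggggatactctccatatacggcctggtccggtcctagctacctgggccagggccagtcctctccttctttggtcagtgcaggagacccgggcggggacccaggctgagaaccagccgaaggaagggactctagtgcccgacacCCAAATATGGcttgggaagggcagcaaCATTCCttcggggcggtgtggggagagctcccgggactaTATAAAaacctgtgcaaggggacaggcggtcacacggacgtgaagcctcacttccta
Actc1, chr2:114052826-114053125, reverse strand: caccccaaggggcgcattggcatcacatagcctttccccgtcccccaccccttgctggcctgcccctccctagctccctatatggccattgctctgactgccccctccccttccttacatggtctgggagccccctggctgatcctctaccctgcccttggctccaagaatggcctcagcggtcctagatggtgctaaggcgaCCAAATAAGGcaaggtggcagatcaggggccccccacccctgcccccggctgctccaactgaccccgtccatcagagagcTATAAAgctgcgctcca

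Counting the annotated start as 0, the window of Nppb held the TEAD letters at -105, the Gata4 letters at -84 and the start box at -31. That of Nppa held only the start box, at -9. The windows of the actins each held 1 CArG box, at -73 in Acta1 and at -47 in Actc1. The start box lay at -7 in Acta1 and after the annotated start, at 33, in Actc1. Acta1 also held the TEAD letters, at -46. Of 32851 promoter windows of the same length in that table, 1.63% held a CArG box, 3.19% the MEF2 motif, 14.7% the TEAD letters, 11.2% the Gata4 letters and 13.6% the start box. Of the other members in the table, the window of Ankrd1 held the TEAD letters at 2 places and the Gata4 letters at -47, that of Xirp2 a MEF2 motif at -74, and that of Timp1 the TEAD letters at -247. Postn has 2 windows in the table, of which 1 held the start box, at -26. Ctgf had no window there and was not searched. Such matches describe the letters and do not show binding.

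Levels are given as log2 of the signal minus the 75th percentile of the array, so that a level of 0 equals that percentile and a step of 1 is a doubling. Levels of different genes come from different probes and were not set against each other. Terf2ip itself was well above background on all 24 arrays and differed between KI and WT hearts by -0.15 (SE 0.15). The line carries altered codons, which need not change this level, so the level does not check the genotype labels. Tissue markers followed the labels. The mean of 7 cardiomyocyte markers, Ankrd1 among them, lay between 6.49 and 6.68 in the hearts, that of 11 skeletal muscle markers between 9.05 and 9.47 in the muscles, and that of 8 hepatocyte markers between 8.37 and 9.22 in the livers. Several arrays also carried transcripts of other tissues. The liver of KI mouse C had a mean of 0.82 for the skeletal muscle markers against -4.36 at most in the other livers, and the brain of KI mouse C had a mean of 4.61 for the hepatocyte markers against -0.67 at most in the other brains. The hearts of KI mouse B and WT mouse E carried atrial transcripts, described below. The muscle of KI mouse B had a mean of -1.24 for 8 mammary epithelium markers, 6 of them well above background, against -3.84 at most and 3 in the other muscles, and a mean of 5.23 for 5 red cell markers against 3.79 at most. In these pieces of tissue, fewer cells of a type and less RNA per cell cannot be told apart.

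In the heart, none of the 9 genes passed the threshold between KI and WT mice. All 9 were well above background on the 6 heart arrays and were tested, and 0 passed an adjusted p of 0.05 (limma, Benjamini-Hochberg), as did 0 of all 14909 genes (0%). At an unadjusted p under 0.05 the counts were 0 of the 9 and 245 of all genes (1.64%). The 3 KI hearts overlapped the 3 WT hearts for every one of the 9, where 5.02% of all genes tested did not overlap (1.79% with KI higher and 3.23% with KI lower). The mean was higher in KI hearts for 7 genes and lower for 2, with a median difference of 0.05 against -0.05 over all genes. Adjusted p-values of the 9 ran from 0.97 to 0.997.

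**Figure D1:**
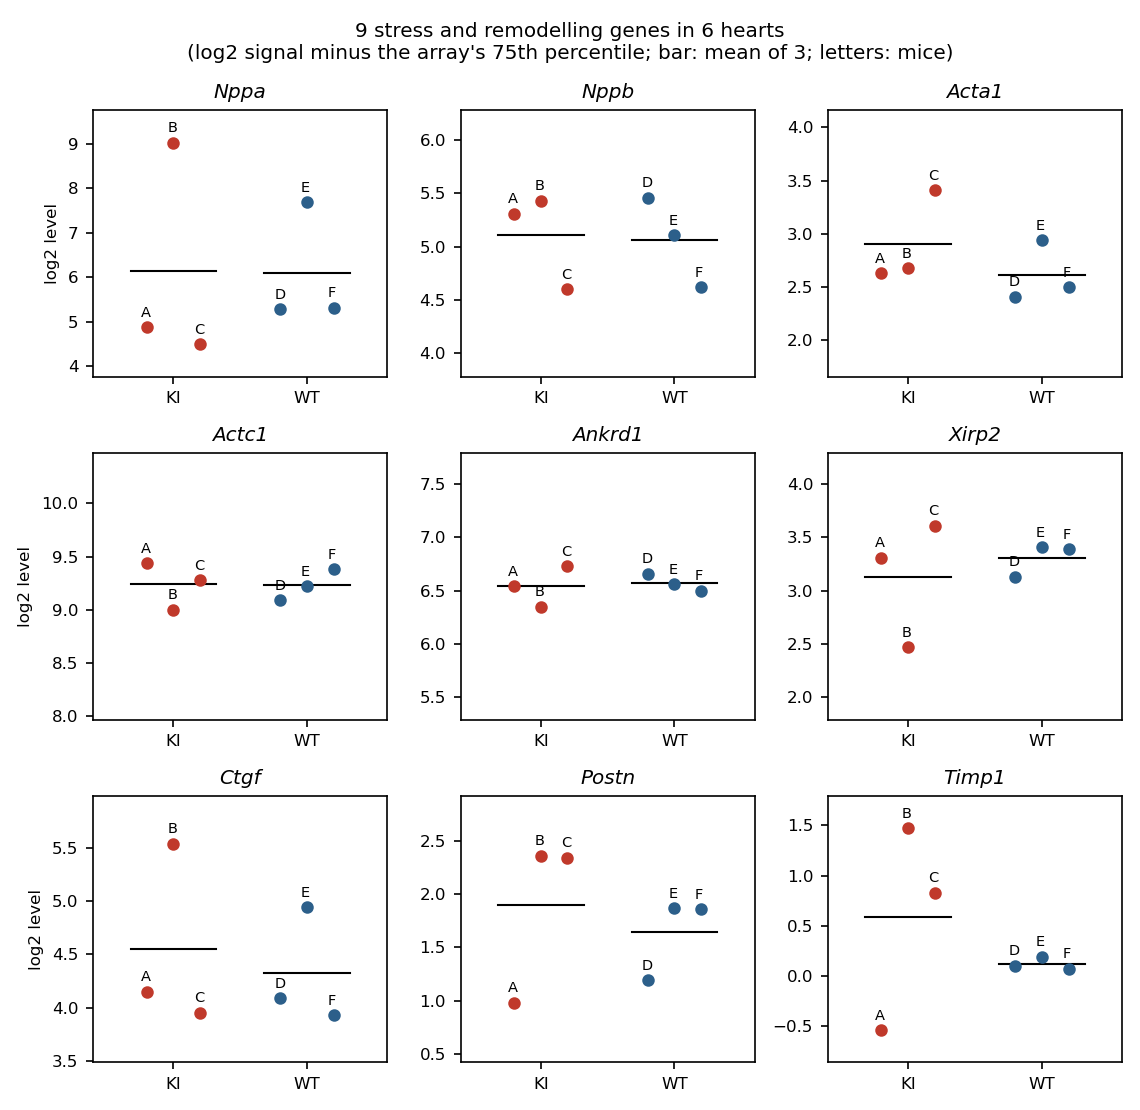
Log2 level (vertical axis) of each of the 9 genes in the 3 KI (red) and 3 WT (blue) hearts, with mice as letters and the mean of each genotype as a bar. The groups overlap for every gene, and Nppa and Ctgf were highest in mice B and E.

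Nppa, the atrial natriuretic peptide gene, had heart levels of 4.88, 9.03 and 4.49 in KI mice A, B and C. The WT mice D, E and F had 5.28, 7.69 and 5.31. One heart of each genotype stood far above the other 2, and the means, 6.13 ± 2.52 (SD, n = 3) in KI versus 6.09 ± 1.38 (SD, n = 3) in WT, differed by 0.04 (SE 1.27). The 95% confidence interval, from -2.99 to 3.06, spanned KI levels from 0.126 to 8.36 times those of WT. On a single heart array the SD over the spots of its probe was between 0.0256 and 0.0995. Within genotypes the SD of Nppa was 2.03, larger than that of 99.8% of the genes tested in heart, for which the median SD was 0.22.

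The same 2 hearts were rich in transcripts of the atrium, the chamber in which Nppa is made at high levels throughout life. Sln, the sarcolipin of atrial muscle, had a level of 8.09 in KI mouse B and 5.55 in WT mouse E. It was 0.88 in KI mouse C and -2.69 or less in the other hearts, and in that of WT mouse F it was not well above background. Myl7, the atrial myosin regulatory light chain, had 7.44 in B, 4.28 in E and 0.19 in C, against -2.12 or less in the rest. Over all 8 atrial markers, of which 7 or 8 were well above background in each heart, the mean was 5.04 in B, 2.66 in E and 0.72 in C and lay between -0.93 and -0.58 in A, D and F. Not every atrial marker followed this order: for 1 of the 8, all KI hearts, B among them, lay below every WT heart (3.23% of all genes). The 6 ventricular markers had a mean of 3.53 in B and of 4.10 to 4.34 in the others. The part of atrial tissue in the values of Nppa was not tested. KI mouse C, whose atrial markers were the third highest, had the lowest Nppa. Without the hearts of B and E, an alternative added after the data were seen, Nppa was lower in the 2 KI hearts left than in the 2 WT hearts by a difference of -0.613 (SE 0.184), with an unadjusted p of 0.0234 and an adjusted p of 1.

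**Figure D2:**
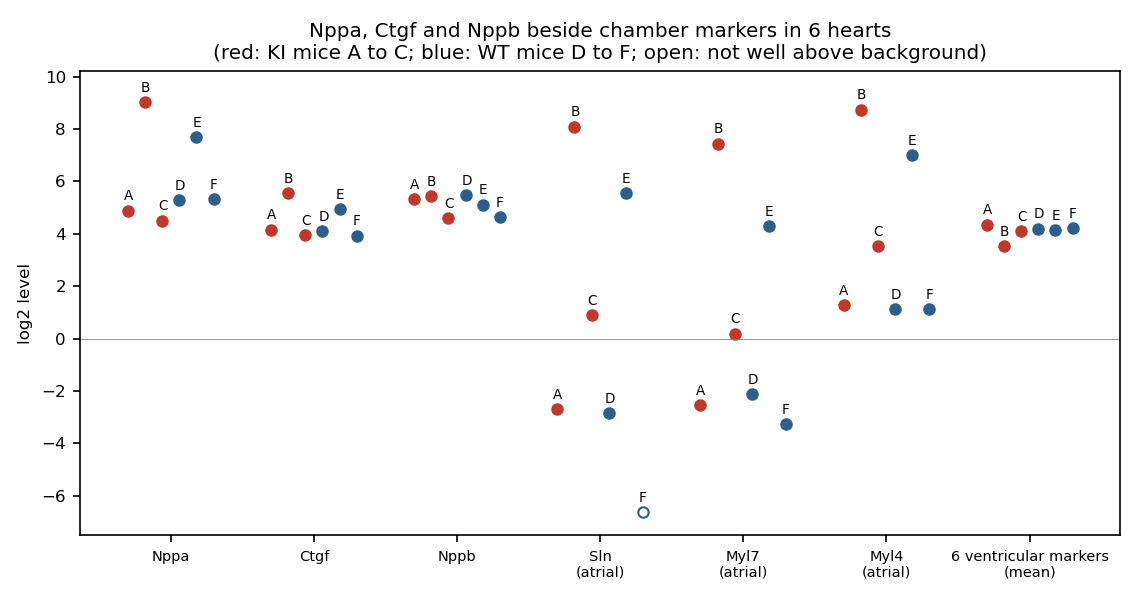
Log2 level (vertical axis) of Nppa, Ctgf, Nppb and 3 atrial genes and the mean of 6 ventricular markers in each of the 6 hearts (red KI, blue WT, letters mice, an open point where the probe was not well above background). Mice B and E are highest for Nppa, Ctgf, Sln, Myl7 and Myl4, but not for Nppb.

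Nppb, the gene of the brain natriuretic peptide, which lies next to Nppa on chromosome 4, did not follow its neighbour. Its heart levels were 5.31, 5.43 and 4.60 in KI mice A, B and C and 5.46, 5.11 and 4.62 in WT mice D, E and F. The lowest heart of each genotype was that of the mouse of 14 months, and these 2 hearts also shared an array slide, so age and slide cannot be told apart. KI minus WT was 0.05 (SE 0.29, 95% confidence interval -0.65 to 0.75), and with the slide as a block it was 0.05 with a smaller SE of 0.13. KI levels between 0.636 and 1.68 times those of WT lay within the interval of the fit without the block. For other parts of the natriuretic system the picture was similar: of 10 genes, the members Nppa and Nppb not among them, 8 were tested in heart and 0 passed, with a median difference of 0.05.

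Actc1, the main actin of the heart, had levels of 9.44, 9 and 9.28 in KI versus 9.09, 9.22 and 9.38 in WT hearts. KI minus WT was 0.01 (SE 0.16, 95% confidence interval -0.37 to 0.39), which allows KI levels from 0.772 to 1.31 times WT. Acta1, the skeletal actin that is re-expressed in overloaded hearts, had 2.63, 2.68 and 3.41 in KI versus 2.41, 2.94 and 2.5 in WT hearts. The highest value was that of KI mouse C. The difference of 0.29 (SE 0.25, 95% confidence interval -0.32 to 0.89) was 0.0357 without that mouse. The myosin heavy chains that usually shift with these genes did not pass either. Myh6, the fast adult isoform, differed by 0.06 (SE 0.14) and Myh7, the slow fetal isoform, by -0.08 (SE 0.29).

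Of the stretch-responsive genes, Ankrd1 was the most constant member. Its heart levels were 6.54, 6.35 and 6.73 in KI versus 6.66, 6.56 and 6.5 in WT mice. The difference was -0.03 (SE 0.14, 95% confidence interval -0.37 to 0.31), and its SD within genotypes of 0.15 was smaller than the median of all genes. Xirp2 had 3.31, 2.47 and 3.61 in KI versus 3.13, 3.41 and 3.39 in WT hearts. The lowest value was that of KI mouse B, and the difference of -0.18 (SE 0.29) was 0.146 without it.

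Ctgf, which TEAD factors and TGF-beta are known to switch on, had heart levels of 4.15, 5.54 and 3.95 in KI versus 4.09, 4.94 and 3.93 in WT mice. The highest heart of each genotype was again that of mouse B or E, as for Nppa. Over the 6 hearts Pearson's r between Ctgf and Nppa was 0.979, a description that rests on those 2 hearts and on shared arrays. KI minus WT was 0.23 (SE 0.46, 95% confidence interval -0.88 to 1.33) and 0.039 without B and E. Of 12 other genes of the Hippo pathway and its TEAD targets, all were tested in heart, 0 passed, 0 had separate groups, and the median difference was 0.01.

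Postn and Timp1 had SDs of 0.79 and 1.03 among KI hearts against 0.39 and 0.06 among WT hearts. Postn had 0.98, 2.36 and 2.34 in KI versus 1.19, 1.87 and 1.86 in WT mice, a difference of 0.25 (SE 0.40), which was 0.0202 without KI mouse B and 0.709 without KI mouse A. Timp1 had -0.54, 1.47 and 0.83 in KI hearts against 0.10, 0.19 and 0.07 in WT hearts. The WT hearts lay inside the KI range, KI mouse A being lowest and B and C highest, and the difference of 0.47 (SE 0.47, 95% confidence interval -0.64 to 1.58) was the largest of the 9 and not past the threshold. KI levels up to 2.98 times those of WT lay within that interval. Without KI mouse B the difference was 0.0265, and without KI mouse A it was 1.03. Marker lists moved with these values. The 9 fibroblast markers had a mean of 3.93 in KI mouse B and 3.67 in C against 3.30 to 3.54 in the other hearts. For 9 markers of tendon and cartilage the mean was -2.25 in B and -2.17 in C against -3.70 to -3.13 in the rest. Fat cell markers were higher in B alone, with a mean of 0.06 against -1.96 or less. The part of these cells in the values of Postn and Timp1 was not tested.

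**Figure D3:**
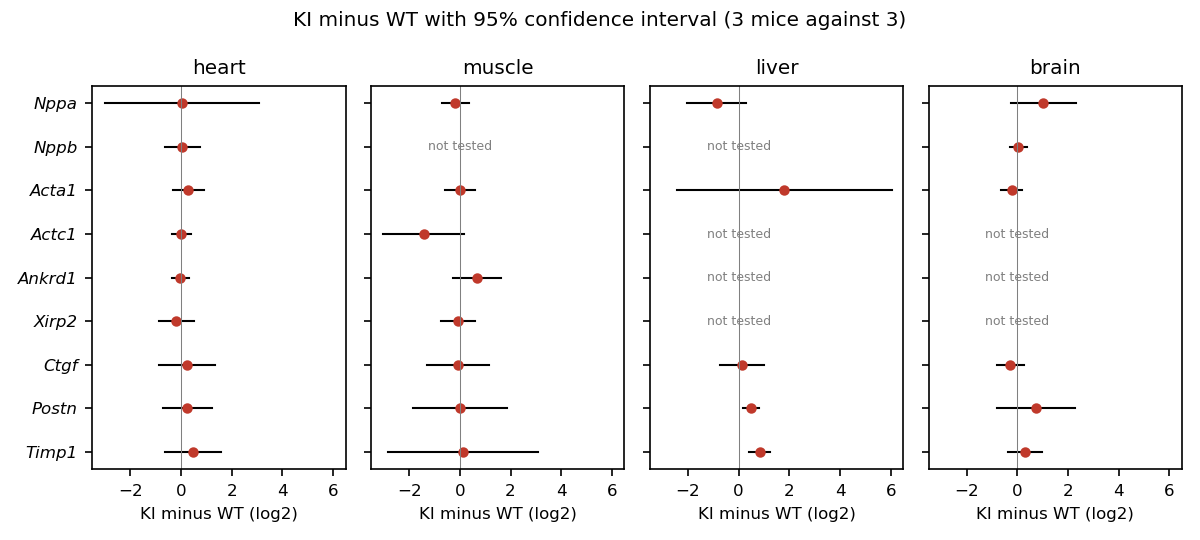
KI minus WT (horizontal axis, log2) with its 95% confidence interval for each of the 9 genes in heart, muscle, liver and brain, 3 mice against 3. Intervals exclude 0 for Timp1 and Postn in liver only, where the adjusted p-values were 0.338 and 0.362, and genes marked as not tested were well above background on all 3 arrays of neither genotype.

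The wider pathways around the members had no gene past the threshold in heart either. Of 153 genes in 11 related lists, 142 were tested in heart. None passed the threshold, 2 had an unadjusted p under 0.05 (1.41%, against 1.64% of all genes), and 5 (3.52%) had KI and WT hearts that did not overlap, against 5.02% of all genes. The 5 were Myom2, Myocd, Thbs2, Lox and Kcnd2. Myom2, a myomesin of the M-band, had levels of 7.93, 7.72 and 7.88 in KI versus 8.25, 8.03 and 8.47 in WT hearts, a difference of -0.41 (SE 0.15, adjusted p = 0.97). Myocd, the coactivator of serum response factor called myocardin, had 1.78, 2.06 and 2 in KI versus 2.37, 2.18 and 2.29 in WT hearts, a difference of -0.33 (SE 0.13, adjusted p = 0.97). Lox, which crosslinks collagen, had -3.36, -4.00 and -3.83 in KI versus -5.05, -4.01 and -7.12 in WT hearts. The last value was not well above background and the groups were separated by 0.01, so the mean difference of 1.67 (SE 0.72, adjusted p = 0.97) rests largely on WT mouse F. Thbs2, a thrombospondin, differed by 0.17 (SE 0.12) and Kcnd2, a potassium channel, by -0.18 (SE 0.13).

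List by list, the heart medians farthest from that of all genes, -0.05, were 0.38 for 20 tested matricellular and matrix genes and 0.34 for 8 other actins and smooth muscle genes. The other lists had medians of -0.15 for 20 stretch-responsive sarcomere and Z-disc genes, -0.12 for 18 hypertrophic transcription factor and calcineurin genes, 0.07 for 14 genes of the TGF-beta pathway, and 0.05 for 11 metalloproteinases and their inhibitors. For 12 secreted stress markers the median was 0.15, for 10 immediate early genes -0.01 and for 9 sarcomere isoforms -0.07. No list had a gene past the threshold. The mean of 6 smooth muscle markers was highest in KI mouse B, at 2.71, followed by E at 2.05 and C at 1.99, and lay between 0.77 and 1.38 in the other 3 hearts. All of these markers but Mylk are also genes of the smooth muscle list, so their mean is not a separate measure beside that list. The part of smooth muscle cells in the medians of the matrix and smooth muscle lists was not tested.

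In liver, the connective tissue members Timp1 and Postn were higher in all 3 KI mice than in any WT mouse, but not past the threshold. Of the 9 genes, 5 were tested in liver and 0 passed, as did 0 of all 14074 genes (0%). Unadjusted p-values were under 0.05 for 2 of the 5, Timp1 and Postn, and for 11.8% of all genes. The same 2 did not overlap between genotypes, as did 19.7% of all genes tested in liver, 12.9% with KI higher and 6.88% with KI lower. Such genes were thus common in liver.

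Timp1 had liver levels of -2.81, -2.87 and -3.08 in KI versus -4.01, -3.48 and -3.76 in WT mice. The means, -2.92 ± 0.14 (SD, n = 3) and -3.75 ± 0.26 (SD, n = 3), differed by 0.83 (SE 0.17, 95% confidence interval 0.42 to 1.23). That is 1.77 times more in KI, with an adjusted p of 0.338 by limma. Postn had 0.22, 0.09 and 0.37 in KI versus -0.23, -0.17 and -0.41 in WT livers. The means, 0.23 ± 0.14 (SD, n = 3) and -0.27 ± 0.13 (SD, n = 3), differed by 0.50 (SE 0.13, 95% confidence interval 0.18 to 0.82), or 1.41 times, with an adjusted p of 0.362. Leaving out each liver in turn, Timp1 ranged from 0.699 to 0.962 and Postn from 0.427 to 0.568. Ctgf, the third connective tissue member, had 1.44, 1.45 and 0.90 in KI versus 1.63, 1.43 and 0.33 in WT livers and differed by 0.14 (SE 0.36).

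**Figure D4:**
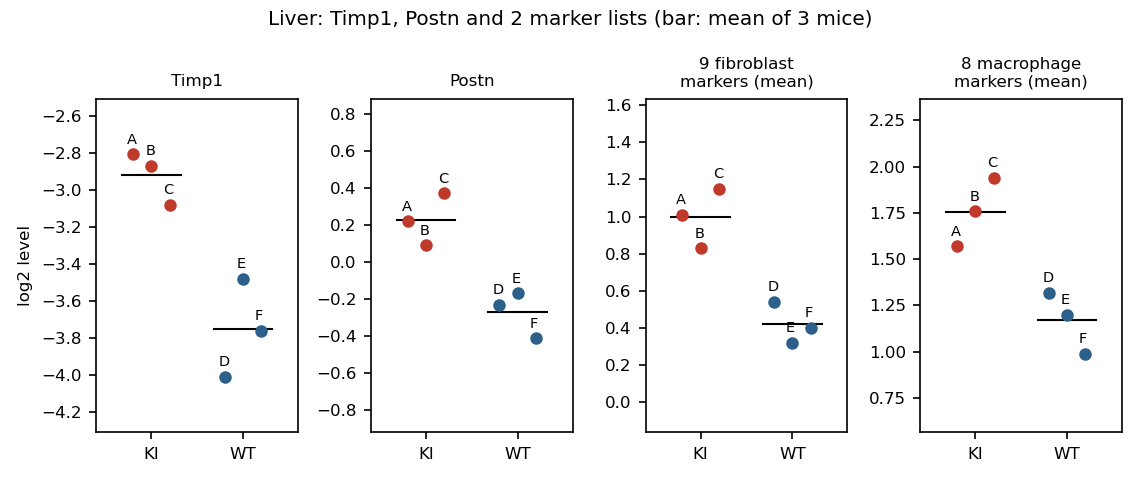
Log2 level (vertical axis) of Timp1 and Postn and the mean log2 level of 9 fibroblast and 8 macrophage markers in the 3 KI (red) and 3 WT (blue) livers, with mice as letters and the genotype mean as a bar. All 4 measures are higher in every KI than in any WT liver.

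The mean levels of fibroblast and macrophage markers were also higher in every KI than in any WT liver. Within a genotype the mice did not always rank alike. Timp1 was highest in KI mouse A, where the macrophage mean was the lowest of the KI livers. It was highest among WT livers in mouse E, where the fibroblast mean was lowest. The mean of 9 fibroblast markers was 1.01, 0.83 and 1.15 in KI versus 0.54, 0.32 and 0.40 in WT livers, with all 9 well above background on every array. For 8 macrophage markers, 7 of them well above background on each array, it was 1.57, 1.76 and 1.94 in KI versus 1.32, 1.2 and 0.99 in WT livers. The part of these cells in the values of Timp1 and Postn was not tested. Related lists held further genes of this kind. Of 142 related genes tested in heart none passed, and of 116 tested in liver none passed either, but 27 (23.3%, against 11.8% of all genes) had an unadjusted p under 0.05 and 31 (26.7%, against 19.7%) did not overlap, 28 of them higher in KI (12.9% of all genes). Among 8 metalloproteinases and their inhibitors the median was 0.58, against 0.05 over all genes. Timp2, Timp3 and Adamts2 of that list, picked after their values were seen, differed by 0.68 (SE 0.14), 0.71 (SE 0.15) and 0.85 (SE 0.17), each with an adjusted p of 0.338.

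Acta1 was high in 1 liver. Its levels there were -4.37, -4.29 and 2.43 in KI versus -3.88, -4.36 and -3.38 in WT mice. KI mouse C, whose liver array carried the skeletal muscle markers, was the only high one, and KI minus WT was 1.80 (SE 1.77) with it and -0.454 without it. Xirp2 was well above background in the liver of that mouse only, at -4.14, and Actc1 at -3.78 was highest there. Nppa was low in liver and differed by -0.86 (SE 0.49), with the highest level, -2.03, in WT mouse F. Without that liver it was -0.344, and without WT mouse D -1.34. Nppb, Actc1, Ankrd1 and Xirp2 were not well above background on all 3 arrays of either genotype in liver and were not tested.

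In skeletal muscle 8 of the 9 genes were tested and 0 passed, as did 0 of all 13498 genes (0%). At an unadjusted p under 0.05 the counts were 0 of the 8 and 117 of all genes (0.867%). Actc1, which adult skeletal muscle expresses at lower levels than fetal muscle, had the largest difference. Its levels were 7.23, 4.61 and 6.41 in KI versus 7.80, 6.75 and 8 in WT muscles, so that KI mouse B was lowest and WT mouse E lay within the KI range. KI minus WT was -1.43 (SE 0.68, 95% confidence interval -3.05 to 0.18, adjusted p = 1), and leaving out 1 muscle at a time it ran from -2.01 to -0.695. Ankrd1 was the only member whose groups were separate, as for 3.62% of all genes tested in muscle (2.22% with KI higher and 1.39% with KI lower). It had 2.17, 1.86 and 1.79 in KI versus 0.30, 1.68 and 1.79 in WT muscles. The lowest KI muscle and the highest WT muscle were equal to 2 decimals, and the difference of 0.68 (SE 0.40, adjusted p = 1) rested on WT mouse D, being 0.201 without it.

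The connective tissue members were high in the same 2 muscles. Timp1 had -0.41, 1.91 and -1.81 in KI versus 2.08, -1.86 and -0.89 in WT muscles. Postn had -0.35, 1.31 and -0.14 in KI versus 1.82, -1.11 and 0.09 in WT muscles. Ctgf had 2.61, 4.39 and 2.66 in KI versus 3.86, 3.09 and 2.92 in WT muscles. KI mouse B and WT mouse D were highest for all 3 genes, and the differences between genotypes were 0.12 (SE 1.24), 0.01 (SE 0.78) and -0.07 (SE 0.52). The fibroblast markers had their highest means in these muscles, 3.53 in D and 2.76 in B against 1.58 to 2.47 in the others, and so had the fat cell markers, 2.67 in D and 2.85 in B against -0.25 to 2.04. Their part in the values, and that of the mammary and red cell transcripts in B, was not tested. Without the muscle of B, KI minus WT was -0.886 for Timp1, -0.51 for Postn, -0.658 for Ctgf and -0.695 for Actc1, each with an adjusted p of 1. Acta1, the main actin of this tissue, lay between 9.51 and 10.35 in all 6 muscles and differed by 0.01 (SE 0.25). Its unscaled signals ran from 400000 to 482000, while the 75th percentiles of these arrays ran from 312.4 to 589.5. The highest level, in KI mouse A, was on the array with the lowest percentile. Whether so bright a probe still responds in proportion was not tested.

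In brain 6 of the 9 genes were tested and 0 passed, as did 0 of all 16045 genes (0%). At an unadjusted p under 0.05 the counts were 0 of the 6 and 126 of all genes (0.785%), and for none of the 6 were the groups separate (2.94% of all genes, 1.22% with KI higher and 1.73% with KI lower). Nppa had -1.36, -1.03 and -0.81 in KI versus -2.93, -2.59 and -0.77 in WT brains. The brain of WT mouse F was as high as the KI brains, and the difference was 1.03 (SE 0.54, 95% confidence interval -0.26 to 2.32, adjusted p = 1). It was 0.614 without WT mouse D and 1.7 without WT mouse F. Postn had -3.73, -4.25 and -1.52 in KI versus -3.92, -4.01 and -3.78 in WT brains. The high value was that of KI mouse C, whose brain array carried the hepatocyte markers and had a fibroblast mean of -0.22 against -1.21 at most in the others. With that brain the difference was 0.74 (SE 0.65), and without it -0.0843. Whether the genotype effect itself differed between tissues was tested for every gene by an F-test over the 24 arrays. It passed for 0 of 17177 genes (0%; 330 genes, 1.92%, at an unadjusted p under 0.05), and the adjusted p was 1 for each of the 9.

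The tissues differed for nearly every member. With KI and WT averaged, 9 of the 9 genes were higher in heart than in liver (41.4% of all 15640 genes tested were higher in heart and 37.9% lower) and 9 of 9 were higher in heart than in brain (44.6% and 36.2% of 16646). Against skeletal muscle, 6 were higher in heart (33.0% of all 15102 genes), 2 were lower (35.1%), and Timp1 did not pass. Nppb against muscle and liver, and Actc1, Ankrd1 and Xirp2 against liver and brain, passed the background filter through the hearts alone. Those calls are not separate support, and no p-value is given for them below. All 6 livers lay on slide 1, which held no heart, so these means compare different slides for liver. With the slide as a block, 8 of 9 genes passed against liver (not Postn), 9 against brain and 7 against muscle (not Ctgf or Timp1). For liver that fit is indirect, since only the brains, on slides 1 and 2, link slide 1 to the slides with hearts. The median difference of the members was 9.60 against liver, 7.70 against brain and 1.5 against muscle, beside 0.07, 0.17 and -0.01 over all genes.

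**Figure D5:**
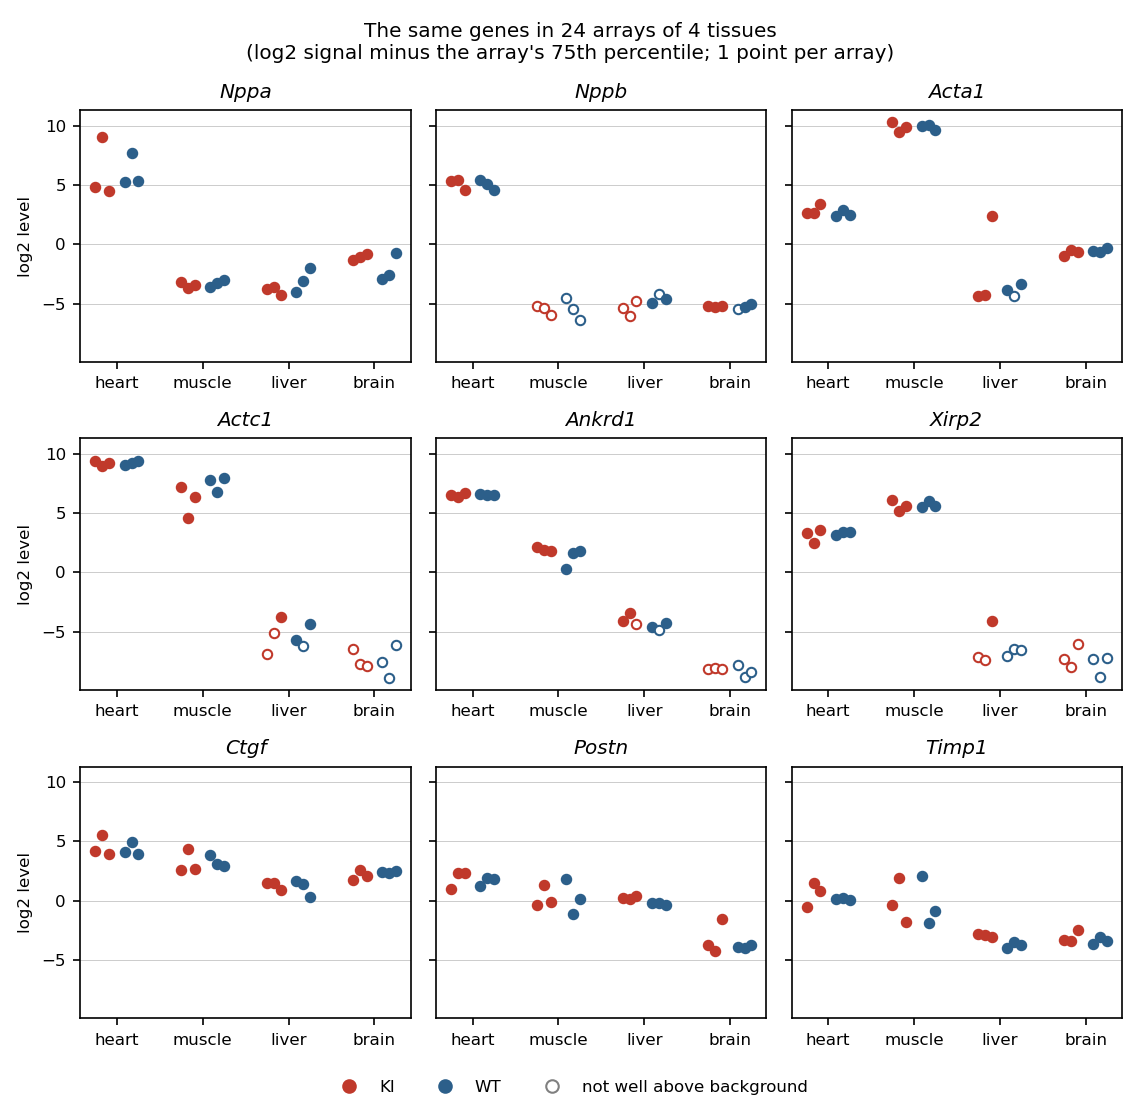
Log2 level (vertical axis) of each of the 9 genes on the 24 arrays, 3 KI (red) and 3 WT (blue) in each of heart, muscle, liver and brain, with open points where the probe was not well above background. Nppa and Nppb are high in heart alone, and Acta1 and Xirp2 are highest in muscle. Nppa, Ctgf, Postn and Timp1 are well above background on all 24 arrays.

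The hormone genes, like Actc1 and Ankrd1, were higher in every heart than on any array of the other tissues. Nppa was at 6.11 ± 1.82 (SD, n = 6) in heart, -1.58 ± 0.94 (SD, n = 6) in brain, -3.36 ± 0.27 (SD, n = 6) in muscle and -3.48 ± 0.82 (SD, n = 6) in liver. Liver overlapped both muscle and brain, and brain lay above muscle on every array. The lowest heart, at 4.49, lay above the highest other array, at -0.77. Heart minus muscle was 9.47 (SE 0.63, adjusted p = 2.02e-10 by limma), or 710 times, and heart minus brain 7.70 (SE 0.63, adjusted p = 1.39e-09), or 208 times. Hearts B and E, rich in atrial transcripts, enter these means. Without them and the liver and brain of mouse C, heart minus muscle was 8.35 and heart minus brain 6.64. Nppb was at 5.09 ± 0.39 (SD, n = 6) in heart and between -6.42 and -4.18 on all arrays of muscle, liver and brain, which overlapped each other. No muscle array had it well above background, and heart was at least 757-fold higher. This bound sets the heart mean against muscle values raised, array by array, to the lowest signal well above background. Nppb was well above background on 2 liver and 5 brain arrays.

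The actins took opposite orders in the striated muscles. Acta1 was at 9.91 ± 0.30 (SD, n = 6) in muscle, 2.76 ± 0.36 (SD, n = 6) in heart, -0.59 ± 0.23 (SD, n = 6) in brain and -2.98 ± 2.68 (SD, n = 6) in liver. It was lower in the heart than in the muscle of all 6 mice, by a difference of -7.15 (SE 0.76, adjusted p = 1.38e-07), so that muscle held 142 times more. The brain levels, between -0.95 and -0.27, were above those of every liver except that of KI mouse C. Actc1 was at 9.24 ± 0.17 (SD, n = 6) in heart and 6.80 ± 1.23 (SD, n = 6) in muscle. It was higher in the heart of all 6 mice, by 2.44 (SE 0.55, adjusted p = 0.000689), or 5.41 times. Heart over brain was at least 46000-fold, a bound since no brain was well above background. The promoter windows printed above held a CArG box in both actins.

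The stretch-responsive genes divided in the same way. Ankrd1 fell from 6.56 ± 0.13 (SD, n = 6) in heart to 1.6 ± 0.66 (SD, n = 6) in muscle, a difference of 4.96 (SE 0.23, adjusted p = 1.08e-12) or 31.1 times. In liver 4 arrays were well above background, with a tissue mean of -4.26. In brain none was, and heart was at least 7410-fold higher than brain. Xirp2 went the other way and was at 5.68 ± 0.35 (SD, n = 6) in muscle and 3.22 ± 0.40 (SD, n = 6) in heart, a difference of -2.46 (SE 0.46, adjusted p = 0.000121), or 5.50 times more in muscle. Heart exceeded brain at least 708-fold, again with no brain well above background.

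The connective tissue genes were spread more evenly. Like Nppa, Postn and Timp1, Ctgf was well above background on all 24 arrays. Its level was 4.43 ± 0.66 (SD, n = 6) in heart, 3.26 ± 0.72 (SD, n = 6) in muscle, 2.26 ± 0.32 (SD, n = 6) in brain and 1.2 ± 0.49 (SD, n = 6) in liver. Heart and muscle overlapped, although the heart was higher in 6 of 6 mice. Heart minus muscle was 1.18 (SE 0.34, adjusted p = 0.00489). It was 0.68 within the slide that held 2 hearts and all muscles, and 0.683 with the slide as a block (adjusted p = 0.237). Without hearts B and E and the liver and brain of mouse C it was 0.772 (adjusted p = 0.0617). That run kept the muscle of KI mouse B, which also carried other transcripts and had the highest Ctgf of the muscles, 4.39. Postn was at 1.77 ± 0.57 (SD, n = 6) in heart, 0.27 ± 1.09 (SD, n = 6) in muscle, -0.02 ± 0.30 (SD, n = 6) in liver and -3.53 ± 1.00 (SD, n = 6) in brain. The heart was higher than the muscle in 5 of 6 mice, by 1.5 (SE 0.46, adjusted p = 0.00799), and by 1.10 without mouse E (adjusted p = 0.0748). Heart minus liver was 1.79 (SE 0.47, adjusted p = 0.00178), and with the slide as a block 1.19 (adjusted p = 0.264). Timp1 was at 0.35 ± 0.70 (SD, n = 6) in heart and -0.16 ± 1.76 (SD, n = 6) in muscle, a difference of 0.52 (SE 0.58, adjusted p = 0.441). In liver and brain it was at -3.33 and -3.24, and these overlapped. Heart held 12.9 times the liver level (adjusted p = 1.05e-05) and 12 times the brain level (adjusted p = 1.44e-05).

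Related genes help to place the members. Of the 153 related genes, 56 were higher and 42 lower in heart than in muscle among 145 tested (over all genes 33.0% were higher and 35.1% lower), 113 were higher and 20 lower than in liver among 144 (41.4% and 37.9% of all genes), and 110 were higher and 19 lower than in brain among 147 (44.6% and 36.2% of all genes). The counts of single lists against muscle below stand beside the same 33.0% and 35.1%. In the natriuretic system Corin, the protease that activates ANP, was at least 235-fold higher in heart than in muscle. In muscle 0 of 6 arrays had it well above background. Ostn, a decoy ligand of the clearance receptor made by muscle, was lower in heart, where 2 of 6 arrays had it well above background. Its measured means were -5.39 in heart and 4.58 in muscle. Among the sarcomere isoforms of stress, Atp2a2, the calcium pump of the sarcoplasmic reticulum, was higher in heart than in muscle by 5.18 (adjusted p = 4.17e-06). Kcnd2 was at least 101-fold higher, with no muscle array well above background. Of 12 Hippo and TEAD genes, 7 were higher and 3 lower in heart than in muscle, Axl, a receptor kinase, being higher by 1.57 (adjusted p = 2.14e-07) and Tead4, a TEAD factor, lower with a difference of -2.48 (adjusted p = 0.00103). Of 11 metalloproteinases and inhibitors tested, 3 were higher in heart, among them Mmp15 by 1.71 (adjusted p = 6.5e-09) and Mmp3, well above background on 5 of 6 muscle arrays, by 2.11 (adjusted p = 0.00385), and 1, Adamts1, was lower with a difference of -0.87 (adjusted p = 5.44e-05).

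The genes most like each member over the 24 arrays, among 14334 well above background in all hearts, are given next. The values are Pearson's r across arrays that share mice and slides and are a description. For Nppb the closest were Nkx2-5 (0.992), a cardiac transcription factor, Tnni3 (0.982), the cardiac troponin I, and Ccdc141 (0.979), and for Nppa they were Tnni3 (0.956), Doc2g (0.953) and Mhrt (0.951). For Acta1 they were Vgll2 (0.987), Pdlim3 (0.980) and Mybpc2 (0.973), the last a fast skeletal myosin-binding protein. For Xirp2 they included Eno3 (0.997), the enolase of muscle, and Ckm (0.995), the muscle creatine kinase. Actc1 was closest to Cycs (0.990), Ogdh (0.990) and Smtn (0.988), and Ankrd1 to Cavin2 (0.986), Chchd7 (0.985) and Ptgir (0.984). Postn was closest to Eva1b (0.974). For Ctgf and Timp1 r was lower, with Mst1r (0.933) first for Ctgf, and Bicc1 (0.932), Ano1 (0.931) and the collagen gene Col1a2 (0.931) for Timp1. Over the 6 hearts alone, Col1a2 was again among the 3 genes most like Timp1 (0.993), and Itga2b (0.998), an integrin of platelets, led for Ctgf. Between the members themselves, Actc1 and Ankrd1 had an r of 0.958 over 24 arrays and 0.263 over the 6 hearts, and Nppa and Nppb 0.95 and 0.453.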

How the data were processed

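Each of 24 tissue samples from 6 female mice was measured on 1 array. Per the labels, RNA was extracted with RNeasy kits (a fibrous tissue kit for heart and muscle) and labelled with Cy3. Per the file headers, the authors extracted intensity values with Agilent Feature Extraction 12.0.3.1. This deposited processed signal was already background-corrected and not yet normalized between arrays. The deposited outlier and background flags, with no unit of their own (other), were used as given. A deposited score table held z-scores of the log signal within each array, to within 0.005, and was an alternative.

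Control and outlier spots were left out and spots of a probe averaged (55681 probes, no spot saturated). Values are log2 processed signal minus the 75th percentile of the array, which lay at a signal of 312.4 to 2510.4. Probes well above background made up 49.4% to 68.4% of an array, and with 3 arrays per group their number limits the precision. Probes were named through RefSeq accessions (GRCm38.p6 gene table, names only, 99.0% of 26732 curated mRNA probes matched), with the probe of highest mean standing for a gene. Coordinates are given for promoter windows only.

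A gene was tested between genotypes if well above background on all 3 arrays of 1 genotype, and between tissues if so in 1 of the 4 groups. limma 3.58.1 in R 4.3.3 (lmFit, eBayes, two-sided) was fitted to the 6 arrays of a tissue, and to all 24 arrays as 8 groups for tissue contrasts and the F-test. Adjusted p-values follow Benjamini-Hochberg over all genes tested, with a threshold of 0.05. With 3 against 3, an exact permutation test cannot give a p below 0.1. The fits were tested on simulated data.

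Arrays of 1 animal number in the labels come from 1 mouse, so numbers pair arrays across tissues, not genotypes. Deviations from group means correlated by 0.0189 on average between arrays of a mouse and by -0.00842 between mice, over 12219 genes. The 24 arrays lay on 3 slides, with hearts of both genotypes on slides 2 and 3.

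The members, the 11 related lists, the marker lists and the rule for named genes were chosen with earlier results of these data known. The rule named the 9 members, Terf2ip, Myh6 and Myh7, up to 3 genes of a related list past the threshold or, with none, those of smallest p whose hearts did not overlap, and the 3 genes most like each member.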

Additional observations from a re-analysis of the deposited data

How the results depend on the processing

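Of 1145 recomputed values, 1083 held both sign and call, or stayed within 1.5 times for a count. Among them, 454 of 459 member values between tissues did. No member passed the threshold between genotypes in any alternative run, those with the replicate block included. Genotype differences near 0 changed sign, always without passing the threshold. In heart, Actc1 was -2.3e-05 and Ankrd1 0.0309 after quantile normalization, Ankrd1 was 0.00169 on the z-score scale and 0.01 in the deposited table, and with array weights Nppa was -0.273, Nppb -0.267 and Xirp2 0.0998. Without the hearts of KI mouse B and WT mouse E, chosen after seeing the data, Nppa was -0.613, Nppb -0.0881, Ankrd1 0.0546 and Xirp2 0.194. In muscle, Acta1 was -0.0206 after quantile normalization and -0.012 with normexp, Postn was -0.0567 with normexp, -0.0016 on the z-score scale, -0.01 in the deposited table and -0.308 with array weights, and Timp1 was -1.28 with array weights. In brain, Nppb was -0.018 on the z-score scale and -0.0267 in the deposited table. The cause was not tested.

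Leaving out 1 array at a time, KI minus WT in heart ran from -1.41 (without B) to 0.86 for Nppa, -0.176 to 0.305 for Nppb, -0.0916 to 0.126 for Actc1, -0.128 to 0.0623 for Ankrd1, -0.421 to 0.146 for Xirp2 and -0.27 to 0.536 for Ctgf. In muscle it ran from -0.214 to 0.208 for Acta1, -0.326 to 0.16 for Xirp2, -0.658 to 0.233 for Ctgf, -0.681 to 0.784 for Postn and -0.886 to 1.27 for Timp1. In liver the ranges were -0.454 to 2.95 for Acta1 and -0.264 to 0.385 for Ctgf, and in brain -0.0441 to 0.142 for Nppb and -0.0843 to 1.28 for Postn.

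Counts over all genes moved from 0 in a few settings, and these genes are named after seeing their values. Array weights called 1 gene in muscle (Prickle2). The 24-array fit called 2 in liver (Pla2g4f and Tmem255a) without a block and 2 when the mouse entered as replicate block, where the consensus correlation was -0.000661. For the difference of the KI effect between tissues, the count was 1 after quantile normalization (Bves), 1 on the z-score scale (Pla2g4f), and 0 to 1 leaving out each mouse, with 1 without WT mouse D (Lrrc6) and 1 without KI mouse B (Nags). Postn between heart and muscle lost its call in WT arrays alone, at 1.38 with an adjusted p of 0.0538, a setting with fewer arrays. Signal over background left Actc1, Ankrd1 and Xirp2 without a genotype test in liver and brain, and Nppb without one in liver and muscle.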
